A study of Rattus norvegicus with 6 samples.

Results

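Cells that receive bone morphogenetic protein (BMP) or activin signals carry several brakes on them, and 8 such genes were followed here in retinal ganglion cell neurons (RGCs). They were Nog, Grem1, Fst, Fstl1 and Fstl3, which encode secreted proteins, Bambi, which encodes a pseudoreceptor, and Smad6 and Smad7, which encode the inhibitory SMADs. All 8 of the 14217 genes with a symbol of their own on the array were measured, by 17 of its 31042 probe sets. The genes were chosen by their place in the pathway with earlier results of the same arrays known, so their treatment differences are a description: whether a probe set passed the threshold of the fit over all probe sets is stated to place it among them, and no p-value is given for it.

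The study asked which transcripts of RGCs respond to glypican 4 (Gpc4), an astrocyte-secreted heparan sulfate proteoglycan, and how that response compares with the one to thrombospondin 1 (TSP1), another astrocyte protein. Transcripts were read with 6 Affymetrix Rat Genome 230 2.0 arrays, 2 for each of 3 conditions. Rat RGCs of postnatal day 6 were purified by immunopanning and kept 12 days in medium with BDNF, CNTF and forskolin. They received Gpc4 for 12 hours, received TSP1 for 12 hours or were left untreated (Alone). The Gpc4 was a His-tagged protein made in HEK293 cells, a human kidney line, and purified on nickel, and the TSP1 was recombinant mouse protein. RGCs given the purification buffer or an unrelated tagged protein were not analysed here. Each array held RNA pooled from wells of 1 culture. The labels give each condition a replicate 1 and a replicate 2 and do not name the culture. The replicate number was taken as the culture, and culture 1 and culture 2 below rest on that reading. The values are log2 expression values after robust multi-array averaging (RMA), so a difference of 1 is a doubling. The array medians lay between 5.96 and 5.99. No detection calls were used, and a value under the array median was not shown to lie above background. Differences were taken between arrays within a probe set and not between probe sets. An exception is the marker sums below, which add linear levels over probe sets, so the brightest weigh most in them.

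BMPs and activins are dimeric ligands that bring together type I and type II receptor kinases, which phosphorylate receptor SMADs that then enter the nucleus with Smad4. Secreted antagonists hold the ligand away from its receptors, a pseudoreceptor takes a receptor's place without a kinase domain, and inhibitory SMADs act on the receptor complex inside the cell. Several of these inhibitors are themselves transcribed in response to the pathway, which makes them feedback inhibitors.

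The proximal promoters of the 5 genes on which the results turn are shown because SMAD complexes bind DNA at short motifs. Each window runs from 250 bases before to 50 bases after the transcription start in RefSeq (assembly GRCr8), and capitals mark GGCGCC, a GC-rich SMAD motif that reads the same on both strands, and CAGAC or its complement GTCTG, the SMAD-binding element. The motifs share no bases with each other in these windows.
Nog, chr10:74627452-74627751, minus strand: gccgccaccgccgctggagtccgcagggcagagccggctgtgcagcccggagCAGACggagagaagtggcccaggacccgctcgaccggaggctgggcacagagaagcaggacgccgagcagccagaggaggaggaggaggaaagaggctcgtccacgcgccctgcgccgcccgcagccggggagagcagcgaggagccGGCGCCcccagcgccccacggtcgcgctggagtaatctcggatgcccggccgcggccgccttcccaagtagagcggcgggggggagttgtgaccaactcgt
Grem1, chr3:120978270-120978569, minus strand: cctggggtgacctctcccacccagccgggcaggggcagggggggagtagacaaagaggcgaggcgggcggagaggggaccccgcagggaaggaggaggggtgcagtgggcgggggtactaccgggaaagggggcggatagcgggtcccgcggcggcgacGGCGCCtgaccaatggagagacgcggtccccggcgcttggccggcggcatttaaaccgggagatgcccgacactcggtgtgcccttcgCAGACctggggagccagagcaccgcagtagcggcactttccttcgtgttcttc
Fstl3, chr7:10579795-10580094, minus strand: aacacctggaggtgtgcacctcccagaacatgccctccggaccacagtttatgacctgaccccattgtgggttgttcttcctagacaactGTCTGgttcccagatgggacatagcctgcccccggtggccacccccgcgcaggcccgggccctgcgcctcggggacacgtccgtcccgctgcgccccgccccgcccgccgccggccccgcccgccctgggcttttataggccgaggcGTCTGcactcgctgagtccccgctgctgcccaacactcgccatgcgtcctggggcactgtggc
Bambi, chr17:58820954-58821253, minus strand: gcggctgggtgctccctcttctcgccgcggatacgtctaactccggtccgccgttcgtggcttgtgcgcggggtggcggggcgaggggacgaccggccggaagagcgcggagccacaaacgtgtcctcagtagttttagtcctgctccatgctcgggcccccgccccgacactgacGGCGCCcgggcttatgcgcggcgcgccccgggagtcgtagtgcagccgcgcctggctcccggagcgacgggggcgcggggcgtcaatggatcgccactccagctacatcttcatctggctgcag
Smad7, chr18:71263258-71263557, plus strand: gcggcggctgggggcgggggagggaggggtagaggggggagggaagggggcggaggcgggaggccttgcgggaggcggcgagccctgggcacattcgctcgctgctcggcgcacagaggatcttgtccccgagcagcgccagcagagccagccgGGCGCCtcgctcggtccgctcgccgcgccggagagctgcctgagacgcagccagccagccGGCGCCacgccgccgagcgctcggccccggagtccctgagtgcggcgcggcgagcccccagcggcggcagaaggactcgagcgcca
A window was found for 6 of the 8 genes, and not for Fst and Smad6. GGCGCC was present in 11% of 33469 rat promoter windows of the same length, and CAGAC on either strand in 50.1% of them. GGCGCC occurred once in Nog, Grem1, Bambi and Fstl1 and at 2 places in Smad7, and it was not in the Fstl3 window, which held GTCTG at 2 places. CAGAC occurred once in Nog and once in Grem1. The 6 windows were GC-rich, at 68.7% to 77.7% against a median of 51.7% over all windows. A match of these letters is a description of the window and was not tested as a binding site.

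Gpc4-treated RGCs held more Nog, Grem1, Bambi and Smad7 signal than RGCs alone, in both cultures, and TSP1-treated RGCs held more Fstl3 signal than either. Under limma with Benjamini-Hochberg adjustment over all probe sets, Nog rose with Gpc4, as did Smad7 at its brightest probe set and not at its others. No probe set of the 8 genes passed the threshold with TSP1. Grem1 and Bambi passed with Gpc4 only when the culture was taken into account. The probe sets of Fstl1 and 3 of 4 of Smad6 lay within 0.17 of Alone under both treatments, and those of Fst differed by -0.26 and -0.33 with Gpc4 without passing.

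**Figure D1:**
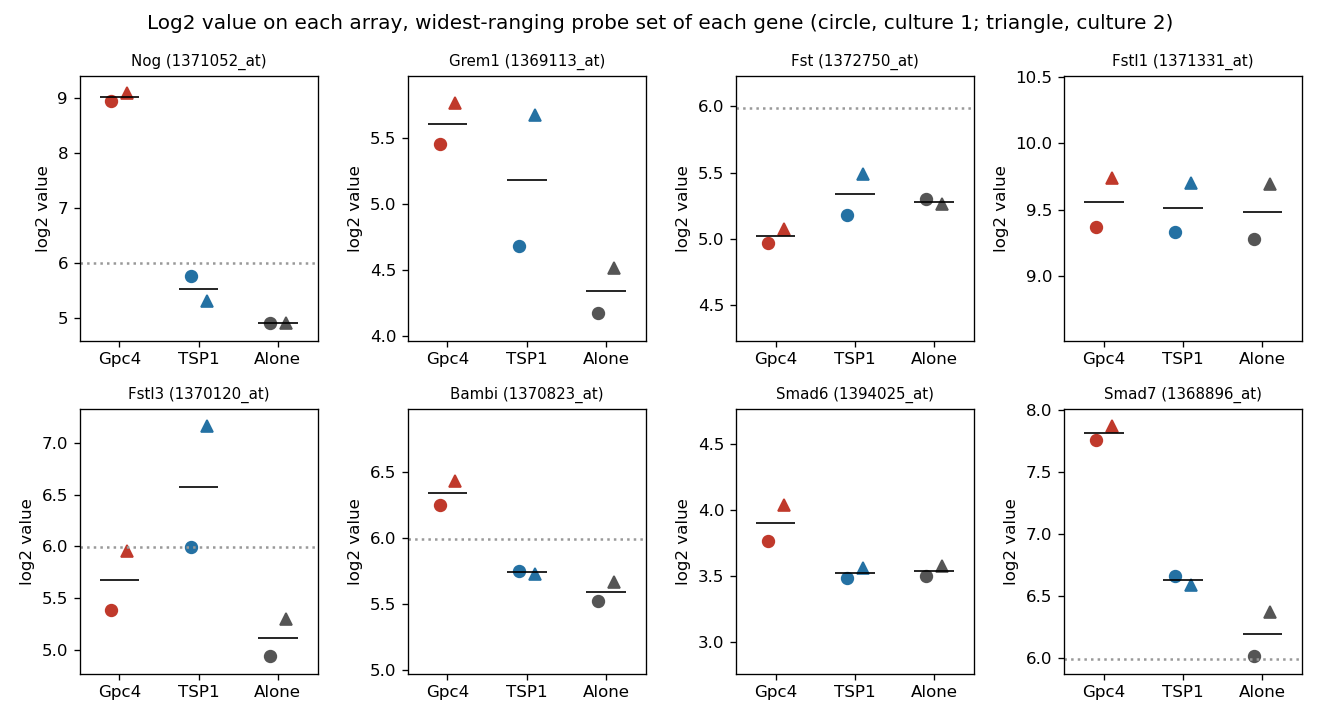
Log2 value on each of the 6 arrays (y axis) for Gpc4, TSP1 and Alone (x axis), with 1 panel for each gene and its widest-ranging probe set; circles are culture 1, triangles culture 2, bars the mean of 2 arrays, and the dotted line the highest array median, 5.99, where it falls in the panel. The y axes differ between panels: Nog spans 4.90 to 9.09, while Smad6 spans 3.49 to 4.04.

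Among the secreted antagonists, Nog had the widest span. It encodes noggin, which binds BMPs and blocks both receptor-binding faces. Its probe set, 1371052_at, read 8.95 and 9.09 in Gpc4-treated RGCs, 5.76 and 5.30 in TSP1-treated RGCs and 4.90 and 4.91 in RGCs alone. Both Gpc4 arrays stood above the array medians and all 4 other arrays below them, with no overlap between any pair of conditions. The difference of Gpc4 from Alone was 4.12 ± 0.15 on the log2 scale (SE, n = 2 each), with 4.18 in culture 2 and 4.05 in culture 1. It amounts to 17.3-fold on the linear scale, although the Alone values lay well under the array medians. The difference of TSP1 from Alone was 0.63 ± 0.15, with 0.39 in culture 2 and 0.86 in culture 1, and did not pass the threshold. Gpc4 lay 3.49 ± 0.15 above TSP1. The order of the means was Gpc4, TSP1, Alone.

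Grem1 encodes gremlin 1, a BMP antagonist of the DAN family. Probe set 1369113_at read 5.45 and 5.76 with Gpc4, 4.68 and 5.67 with TSP1 and 4.17 and 4.51 in RGCs alone. All 6 values were below the array medians. The Gpc4 arrays lay above both Alone arrays, and the TSP1 arrays spread so far that 1 of them reached into the Gpc4 range. Gpc4 differed from Alone by 1.27 ± 0.29, with 1.25 in culture 2 and 1.28 in culture 1. This difference passed the threshold only when the culture was taken into account as a replicate block. TSP1 differed from Alone by 0.84 ± 0.29, with 1.16 in culture 2 and 0.51 in culture 1, and passed in neither fit.

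Fst, Fstl3 and Fstl1 carry follistatin domains. Follistatin and follistatin-like 3 bind activin and myostatin with high affinity, while Fstl1 is a more distant secreted relative. Fstl3 was the gene with the largest difference between TSP1 and Alone, and it has 2 probe sets. The brighter, 1379440_at, read 6.78 and 7.42 with Gpc4, 7.45 and 8.50 with TSP1 and 6.49 and 6.94 in RGCs alone. Both TSP1 arrays were above every Gpc4 and Alone array, and the Gpc4 and Alone ranges overlapped. The dimmer, 1370120_at, read 5.39 and 5.96 with Gpc4, 5.99 and 7.16 with TSP1 and 4.94 and 5.30 in RGCs alone. Here all 3 conditions were apart, with TSP1 highest and Alone lowest.

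The TSP1 difference from Alone in Fstl3 was 1.26 ± 0.35 at 1379440_at, with 1.56 in culture 2 and 0.96 in culture 1, or 2.40-fold on the linear scale. At 1370120_at it was 1.46 ± 0.36, with 1.86 in culture 2 and 1.05 in culture 1. Neither passed the threshold with or without the replicate block, and 1379440_at passed only with that block among probe sets of a mean of at least 6. In the same setting its difference of Gpc4 from TSP1 passed as well. The Gpc4 difference from Alone was 0.39 ± 0.35 at 1379440_at and 0.56 ± 0.36 at 1370120_at. Gpc4 lay below TSP1, with a difference of -0.88 ± 0.35 at 1379440_at and -0.90 ± 0.36 at 1370120_at. Across the 6 arrays the 2 probe sets had a Pearson r of 0.99, a description over arrays that share RNA.

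Fst itself was low throughout. Probe set 1372750_at read 4.97 and 5.07 with Gpc4, 5.18 and 5.49 with TSP1 and 5.30 and 5.26 in RGCs alone. Probe set 1387843_at read 5.01 and 5.04 with Gpc4, 5.33 and 5.44 with TSP1 and 5.20 and 5.51 in RGCs alone. In both, the Gpc4 arrays were the lowest and the TSP1 and Alone arrays overlapped. The Gpc4 difference from Alone was -0.26 ± 0.12 and -0.33 ± 0.12, and every value lay under the array medians.

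Fstl1 was well above the array medians on every array and showed no separation by treatment. Probe set 1368822_at read 9.80 and 10.04 with Gpc4, 9.79 and 10.18 with TSP1 and 9.77 and 10.03 in RGCs alone. At 1371331_at the values were 9.37 and 9.74 with Gpc4, 9.33 and 9.70 with TSP1 and 9.28 and 9.69 in RGCs alone. The conditions overlapped in both. Probe set 1368821_at read between 7.43 and 7.80. Over the 3 probe sets the Gpc4 difference from Alone ran from -0.12 to 0.07 and the TSP1 difference from -0.17 to 0.09.

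The pseudoreceptor gene Bambi encodes a transmembrane protein that resembles a type I receptor and lacks its kinase domain. Probe set 1370823_at read 6.25 and 6.43 with Gpc4, 5.75 and 5.73 with TSP1 and 5.52 and 5.67 in RGCs alone. The 2 Gpc4 arrays were the only ones above the array medians, and they lay apart from all 4 others. The difference of Gpc4 from Alone was 0.75 ± 0.10, with 0.76 in culture 2 and 0.73 in culture 1. It passed the threshold with the replicate block and not without it. The difference of TSP1 from Alone was 0.15 ± 0.10, and Gpc4 lay 0.60 ± 0.10 above TSP1.

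The inhibitory SMADs parted from each other. Smad7, which acts on both the BMP and the TGF-beta and activin arms, has 3 probe sets, and the largest difference was at 1368896_at. It read 7.76 and 7.87 with Gpc4, 6.66 and 6.59 with TSP1 and 6.01 and 6.37 in RGCs alone. All values were above the array medians and the 3 conditions did not overlap. Gpc4 lay 1.63 ± 0.13 above Alone, or 3.08-fold on the linear scale, with 1.5 in culture 2 and 1.75 in culture 1. TSP1 lay 0.44 ± 0.13 above Alone, with 0.22 in culture 2 and 0.65 in culture 1, and did not pass the threshold. The difference of Gpc4 from TSP1 was 1.19 ± 0.13.

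The other Smad7 probe sets were below the array medians on every array. Probe set 1368898_at read 5.07 and 5.23 with Gpc4, 5.16 and 4.90 with TSP1 and 5.05 and 4.67 in RGCs alone, and 1368897_at lay between 3.83 and 4.03. Their Gpc4 differences from Alone were 0.29 ± 0.15 at 1368898_at and 0.08 ± 0.09 at 1368897_at. The rise of Smad7 therefore rests on 1 of its 3 probe sets. With either Gpc4 array left out the Smad7 difference was 1.57 or 1.68 and no longer passed the threshold. The Nog call held in all 6 fits that left out 1 array, with a difference between 4.05 and 4.19.

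Smad6, which acts mainly on the BMP arm, has 4 probe sets. The brightest, 1375121_at, read 6.51 and 6.67 with Gpc4, 6.52 and 6.64 with TSP1 and 6.79 and 6.49 in RGCs alone, and the conditions overlapped. At 1394025_at the values were 3.77 and 4.04 with Gpc4, 3.49 and 3.56 with TSP1 and 3.50 and 3.58 in RGCs alone. The Gpc4 arrays were the highest there, by 0.37 ± 0.11 over Alone, at a level far under the array medians. The probe sets 1377467_at and 1385928_at lay between 3.90 and 5.13. Between probe sets of Smad6 the Pearson r over the 6 arrays ran from -0.46 to 0.52, so they did not follow each other as those of Fstl3 did.

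**Figure D2:**
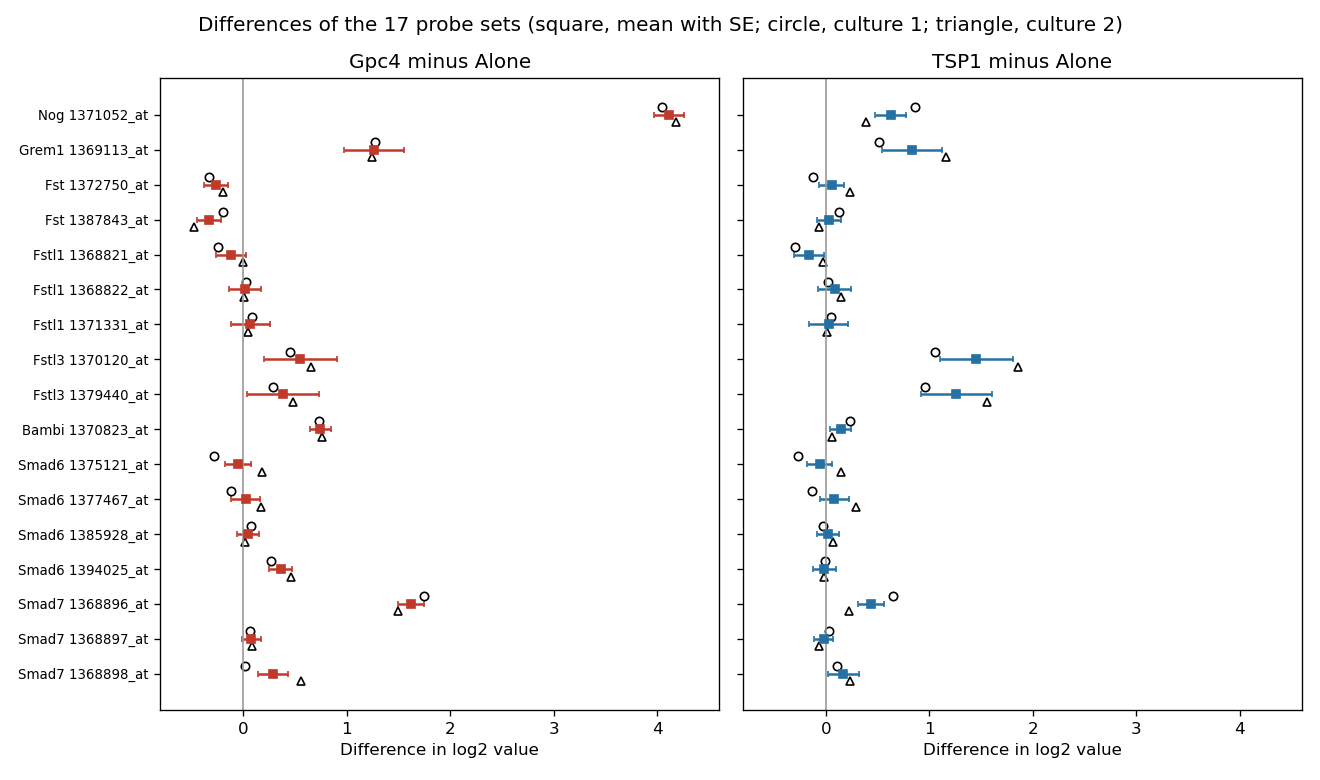
Difference in log2 value from Alone (x axis) for each of the 17 probe sets (y axis), Gpc4 on the left and TSP1 on the right; squares with bars are the fitted difference with its SE, circles culture 1 and triangles culture 2. With Gpc4, Nog lies farthest from 0 at 4.12, and with TSP1 the 2 Fstl3 probe sets lie farthest, at 1.46 and 1.26.

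In counts, 2 of the 17 probe sets, those of Nog and Smad7, were called in Gpc4 against Alone at an adjusted p under 0.05, where 0.0838% of all probe sets were called. The replicate block called 4 of the 17, adding Grem1 and Bambi, against 0.206% of all probe sets. None of the 17 was called by limma in TSP1 against Alone, where 0.0% of all probe sets were called. At an unadjusted p under 0.05 limma picked 5 of the 17 there, and 1367 of 31042 probe sets in all. The replicate block also called none of the 17 with TSP1, against 0.0129% of all probe sets. Gpc4 against TSP1 called 2 of the 17, again Nog and Smad7, against 0.0612% of all, and with the replicate block the same 2 genes against 0.258%. Since the genes were chosen with these contrasts known, nothing is read from their share. The comparisons with Alone share its 2 arrays.

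By separation of the arrays alone, both Gpc4 arrays were above both Alone arrays at 8 of the 17 probe sets, of 6 genes, against 16.0% of all probe sets, and below them at 2, both of Fst, against 18.9%. Both TSP1 arrays were above both Alone arrays at 6 probe sets, of 5 genes, against 14.3% of all, and below them at 0, against 15.6%. Between treatments, both Gpc4 arrays were above both TSP1 arrays at 4 probe sets, of 4 genes, against 14.6% of all. They were below both TSP1 arrays at 4, those of Fst and Fstl3, against 15.5%. Of the 17 probe sets, 6 were above the array medians on all arrays and 8 below them on all.

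The other genes of the pathway were taken as 6 lists, which were also chosen with earlier results of the same arrays known. Their adjusted p-values in treatment comparisons place them among all probe sets and are not independent evidence. Of 14 other extracellular antagonists measured, of 19 listed, none was called in any treatment comparison without the replicate block, and their median Gpc4 difference from Alone was 0.06, against -0.01 over all probe sets and 0.57 over the 8 genes described. The highest was Sostdc1, which encodes a secreted antagonist of BMP and Wnt signals. It read 7.56 and 8.49 with Gpc4, 6.00 and 6.92 with TSP1 and 6.04 and 7.41 in RGCs alone. Gpc4 lay 1.30 ± 0.49 above Alone without overlap, with 1.08 in culture 2 and 1.52 in culture 1, and every condition was higher in culture 2. With the replicate block Sostdc1 was called in Gpc4 against Alone (limma adjusted p = 0.0116) and in Gpc4 against TSP1 (limma adjusted p = 0.00422), the only gene of this list to be so. With TSP1 the median of this list was 0.01 and that of the 8 genes 0.29, against -0.01 over all probe sets. The 8 genes were chosen with these contrasts known, so nothing is read from how their medians compare with the others.

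Of 14 other intracellular inhibitors none was called with or without the replicate block, with a median of 0.05 for Gpc4 and 0.04 for TSP1 against Alone. Of 16 ligands none was called in either fit, and their medians were 0.02 and 0.02. The ligand with the lowest difference was Bmp6, whose probe set 1388920_at read 6.55 and 6.48 with Gpc4, 7.0 and 7.24 with TSP1 and 6.84 and 7.24 in RGCs alone. Its difference of Gpc4 from Alone was -0.53 ± 0.15 there and -0.58 ± 0.14 at 1388201_at, and neither passed the threshold. Its other probe sets, 1378427_at at 0.13 ± 0.09 and 1378827_at at -0.02 ± 0.11, did not share that direction or size. Of 12 receptors and co-receptors none was called in either fit, with medians of -0.09 for Gpc4 and -0.0025 for TSP1.

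Among 6 signal-transducing SMADs, 1 was called with Gpc4 and none with TSP1. This was Smad9, a receptor SMAD of the BMP arm, which at its brighter probe set read 8.90 and 8.93 with Gpc4, 6.99 and 6.98 with TSP1 and 6.76 and 6.86 in RGCs alone. It was 2.11 ± 0.09 above Alone with Gpc4 (adjusted p = 0.000256, limma). The Id genes encode repressors that are direct BMP targets, and 2 of 4 were called with Gpc4, 3 with the replicate block, and none with TSP1. Id1 lay 1.96 ± 0.17 above Alone with Gpc4 (limma adjusted p = 0.0114) and Id2 1.94 ± 0.16 (limma adjusted p = 0.00969). Id3 lay 2.20 ± 0.27 above Alone (limma adjusted p = 0.0532) and Id4 0.62 ± 0.09 (limma adjusted p = 0.114), and neither passed without the block. With the replicate block Id3 passed (limma adjusted p = 0.000408). Against TSP1, Gpc4 called Smad9 and 3 of the 4 Id genes, Id3 among them, and with the replicate block all 4. Smad9 and the Id genes were listed with earlier results known, so these p-values are a description.

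**Figure D3:**
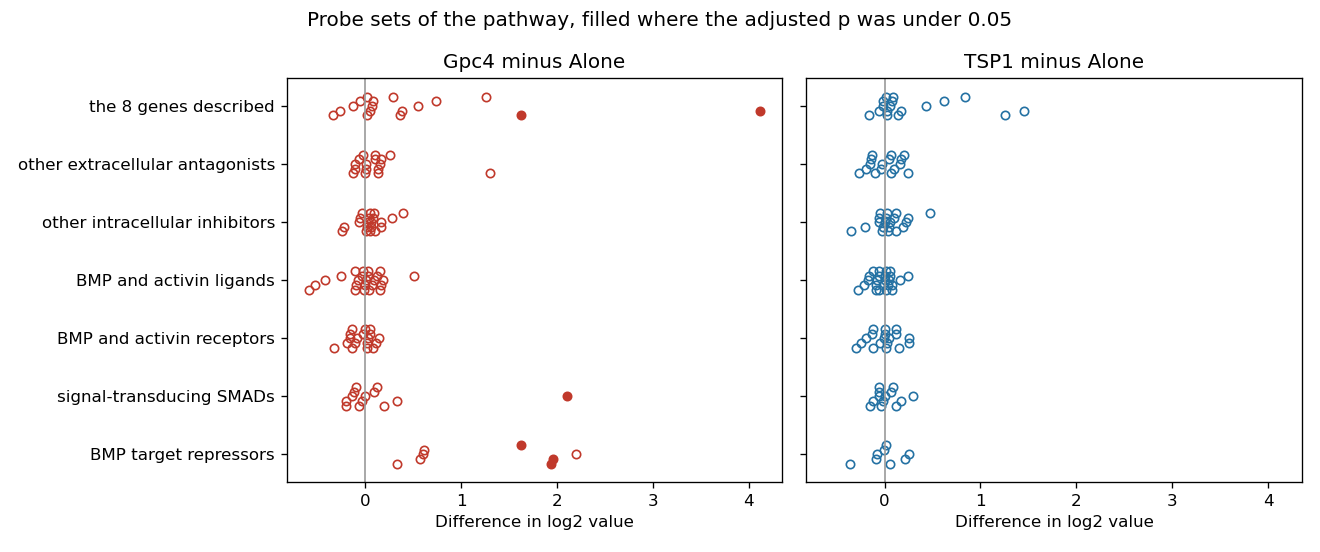
Difference in log2 value from Alone (x axis) for every probe set of the 8 genes described and of 6 pathway lists (y axis, points spread vertically only to part them), Gpc4 on the left and TSP1 on the right; filled points passed an adjusted p of 0.05 in the fit without the replicate block. Filled points appear with Gpc4 in Nog, Smad7, Smad9, Id1 and Id2, and none appear with TSP1.

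The genes whose pattern over the 6 arrays was most like that of each gene with a range of at least 1 were sought among 267 other probe sets of at least that range. For Nog these were Id2 (Pearson r of 0.998), Cxxc5 (0.997), which encodes a zinc finger protein, and Smad9 (0.995). For Smad7 they were Chst8 (0.997), which encodes a sulfotransferase, Cxxc5 (0.991) and Hes1 (0.988), which encodes a transcriptional repressor. All 5 of these genes had both Gpc4 arrays above the other 4. Hes1 read 7.52 and 7.63 with Gpc4, 5.86 and 6.06 with TSP1 and 5.48 and 5.85 in RGCs alone.

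For Grem1 the nearest were Filip1l (0.925), Penk (0.91), which encodes proenkephalin, and Pfn2 (0.855), which encodes a profilin. For Fstl3 they were Itga1 (0.947), an integrin subunit gene, Tnfrsf11b (0.937), which encodes osteoprotegerin, and Postn (0.935), which encodes the matrix protein periostin. Postn read 7.62 and 8.24 with Gpc4, 8.43 and 9.16 with TSP1 and 7.42 and 8.19 in RGCs alone. These values differ both by treatment and by culture, as those of Fstl3 do. The arrays share 2 cultures and 3 conditions, and the correlations are a description over 6 arrays.

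The cultures gave a contrast that does not use the treatment differences, although the genes were chosen with earlier results of the same arrays known. It sets 1 culture against 1 culture, with the 3 differently treated arrays of each as its repeats, so its p-values measure the spread between conditions and not between cultures. Fstl3 was higher in culture 2 than in culture 1 in every condition, by 0.64 with Gpc4, 1.05 with TSP1 and 0.45 in RGCs alone at 1379440_at. The mean difference was 0.71 ± 0.11 and was called (limma adjusted p = 0.0498), 1 of the 17 probe sets, against 0.561% of all. The call is at the edge of the threshold, and it was lost in each of the 6 fits that left out 1 array. At 1370120_at the difference was 0.70 ± 0.14 (limma adjusted p = 0.121). Grem1 differed by 0.55 ± 0.13 (limma adjusted p = 0.196) and Fstl1 by 0.38 ± 0.07 at 1371331_at (limma adjusted p = 0.0836), with culture 2 higher in all 3 conditions for both. Nog, at -0.10 ± 0.12, Bambi, at 0.10 ± 0.08, and Smad7, at 0.13 ± 0.09 for 1368896_at, differed less between cultures. Culture 2 was higher in all 3 conditions at 8 of the 17 probe sets and lower in all at 2, or 47.1% and 11.8%, against 13.9% and 17.5% of all probe sets. The 8 include every probe set of Fstl1 and of Fstl3, so they are not 8 separate genes. The rest of them belong to Grem1, Fst and Smad6.

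Of the other pathway genes, Sostdc1 was higher in culture 2 by 1.07 ± 0.10 (limma adjusted p = 0.00469), the ligand gene Bmp4 by 0.67 ± 0.09 (limma adjusted p = 0.025) and Gdf15, which encodes a distant relative of the BMPs, by 0.84 ± 0.09 (limma adjusted p = 0.00657). Bmp4 read 6.01 in culture 2 and 5.18 in culture 1 with Gpc4, 5.84 in culture 2 and 5.11 in culture 1 with TSP1, and 5.66 in culture 2 and 5.22 in culture 1 in RGCs alone.

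**Figure D4:**
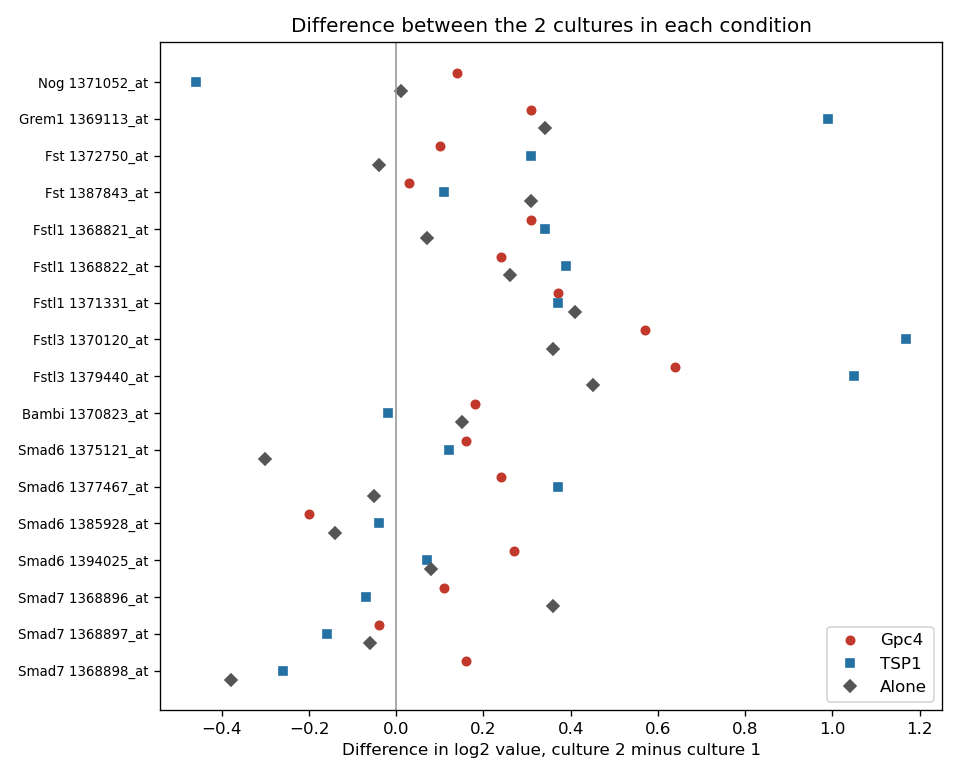
Difference in log2 value between culture 2 and culture 1 (x axis) for each of the 17 probe sets (y axis), with 1 point for each of Gpc4, TSP1 and Alone. The Fstl3 and Fstl1 probe sets and Grem1 lie to the right of 0 in all 3 conditions, and the TSP1 points of Fstl3, at 1.17 and 1.05, and of Grem1, at 0.99, lie farthest right.

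Markers of the cell types of such cultures, listed with earlier results of the same arrays known, were read beside these results. All 9 measured RGC markers were above the array medians on every array, and the log2 of their summed linear level lay between 15.62 and 15.69. Of 11 fibroblast and pericyte markers, 5 were above the medians on all arrays, and Pdgfrb and Rgs5 were below them on all. Their summed level was 11.10 in culture 2 and 10.56 in culture 1 with Gpc4, 11.36 in culture 2 and 10.73 in culture 1 with TSP1, and 11.24 in culture 2 and 10.54 in culture 1 in RGCs alone. It was thus higher in culture 2 in every condition, as Fstl3, Fstl1 and Grem1 were, and close between conditions within a culture. The sum of the other retinal neuron markers was also higher in culture 2 in every condition. With culture 2 first, it was 8.92 and 8.79 with Gpc4, 8.94 and 8.76 with TSP1, and 8.95 and 8.72 in RGCs alone. The brightest fibroblast and pericyte marker, Fn1, weighs most in the sum of that list. It read 9.04 and 9.43 with Gpc4, 9.43 and 10.25 with TSP1 and 9.15 and 9.64 in RGCs alone. Its TSP1 difference from Alone was 0.61 in culture 2 and 0.28 in culture 1, and was not called in either fit. A close sum therefore does not show that each marker was steady. Of these 11 markers 3 were called between cultures, with culture 2 higher: Lum by 1.79 ± 0.15 (limma adjusted p = 0.00307), Dcn by 1.54 ± 0.18 (limma adjusted p = 0.0102) and Postn by 0.71 ± 0.07 (limma adjusted p = 0.00611). Culture 2 was higher in all 3 conditions at 7 of the 11 and lower in all at 1, Pdgfrb. These are 63.6% and 9.1%, against 13.9% and 17.5% of all probe sets. Pdgfra, Acta2 and Rgs5 differed in sign between conditions. With TSP1 single markers went apart. Postn was 0.99 above Alone, 0.97 in culture 2 and 1.01 in culture 1, and was called with the replicate block (limma adjusted p = 0.0402) and not without it. Dcn, Lum and Pdgfra were lower with TSP1 than in RGCs alone in both cultures, by mean differences of -1.49, -1.64 and -1.35, and none of them was called in either fit. Against TSP1, Gpc4 had more Dcn and Lum and less Postn, all called with the replicate block only. The part of fibroblast RNA in the Fstl3, Fstl1 and Grem1 values was not tested, and in bulk RNA fewer cells of a type and less RNA per cell cannot be told apart.

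The summed level of the endothelial markers was higher with Gpc4. It was 8.21 and 8.30 with Gpc4, 7.43 and 7.42 with TSP1 and 7.48 and 7.80 in RGCs alone. This followed Kdr, which encodes a VEGF receptor and read 7.86 and 8.0 with Gpc4, 6.77 and 6.83 with TSP1 and 6.84 and 7.36 in RGCs alone, and was called in Gpc4 against TSP1 with the replicate block only (limma adjusted p = 0.0171), while the other 4 measured, Cldn5, Pecam1, Tek and Flt1, were below the array medians on all arrays. The 9 astrocyte and Muller glia markers summed to 10.65 and 10.64 with Gpc4, 10.56 and 10.49 with TSP1 and 10.24 and 10.41 in RGCs alone, with 6 of them below the medians throughout, Gfap included. This sum followed Glul, which read 10.29 and 10.27 with Gpc4, 10.16 and 10.13 with TSP1 and 9.74 and 10.03 in RGCs alone. The Gpc4 difference from Alone was positive for 7 of the 9 and negative for Aqp4 and Gjb6. Microglia markers summed to 8.58 and 8.26 with Gpc4, 8.82 and 8.19 with TSP1 and 8.76 and 8.09 in RGCs alone, and C1qa and C1qb were called between cultures, at -0.99 ± 0.13 and -1.09 ± 0.11 in culture 2 against culture 1 (limma adjusted p = 0.0218 and 0.00657). Oligodendrocyte lineage markers lay between 8.24 and 8.46 and those of other retinal neurons between 8.72 and 8.95, with Gad1 called between cultures at 0.61 ± 0.08 (limma adjusted p = 0.0157). No other marker was called in any comparison in either fit. The part of these cells in the Nog, Smad7 and Bambi values was not tested.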

How the data were processed

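Samples were grouped by their labels into Gpc4, TSP1 and Alone, 2 arrays each, and all 6 were used. The deposited values are log2 expression values that the authors made with RMA in Expression Console from Affymetrix, whose version is not given in the sources used here. RMA corrects background, normalizes between arrays and summarizes the probes of each probe set. The values were rounded to 2 decimals. RMA assumes like distributions on all arrays and compresses differences of dim probe sets. The number of arrays limits the precision. By the platform annotation 20826 probe sets carry a single symbol, 436 carry several and were left unnamed, and 9780 carry no symbol.

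No further normalization or filter was applied. Differences were fitted in R 4.3.3 with limma 3.58.1 (its lmFit and eBayes functions, 1 mean per condition, 3 residual degrees of freedom, two-sided, Benjamini-Hochberg adjustment over 31042 probe sets, threshold 0.05). The fits were tested on simulated data first. Cultures were compared in the same way with the condition as a covariate. The methods describe separate RGC cultures, and arrays of the same replicate number deviated together from their condition means (r of 0.29, 0.35 and 0.37 for the 3 pairs of conditions), so the number was taken as the culture and also fitted as a replicate block. p-values of the treatment comparisons without the block measure the spread between these 2 cultures only. With the block the shift between the cultures is taken out. Those p-values then measure how far the differences between conditions varied from 1 culture to the other. p-values between cultures measure the spread over conditions, with 1 culture on each side.

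The 8 genes, the pathway lists and the marker lists were chosen with earlier results of these data known. Named were every probe set of the 8 genes, pathway genes called in a comparison or differing by at least 0.58 with the same sign in both cultures, the Id genes, Smad9 and, for each gene with a range of at least 1, the 3 genes most like it. Hes1 and single marker genes are named beside results they touch and were chosen after their values were seen. For a gene with several probe sets the list medians took the one with the highest mean. Promoter windows are those of RefSeq on GRCr8; no build is stated for the arrays. Alternatives were other normalizations, a filter on dim probe sets, a trended variance, the block, 2-group fits, another threshold, the methods' t-test and fits without 1 array.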

Additional observations from a re-analysis of the deposited data

How the results depend on the processing

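With 2 arrays in each condition, counts near the threshold moved with the test. No difference of the 8 genes changed direction in any alternative where it was called. In Gpc4 against Alone, where 2 of the 17 probe sets were called, the replicate block called 4, the methods' t-test 5 unadjusted and 0 after Benjamini-Hochberg, and fits without 1 array 1 to 2. For other pathway genes, 3 were called. A mean of at least 6 gave 5, a trended variance 5, the replicate block 5 (Sostdc1 and Id3 added), the block with that filter 6, the methods' t-test 12 unadjusted and 0 adjusted, and fits without 1 array 1 to 3, with 1 left without Gpc4 or Alone of culture 2. In TSP1 against Alone the block with the filter called 1 of the 17 probe sets, against 0, which was Fstl3 1379440_at at 1.26, called also in Gpc4 against TSP1 there at -0.88, and the methods' t-test 4 other pathway genes unadjusted, against 0. In Gpc4 against TSP1, averaging the probe sets of each gene gave 1 call, against 2, the methods' t-test 4 unadjusted and 0 adjusted, and fits without 1 array 1 to 2. There Smad7 was lost without either Gpc4 array, at 1.14 and 1.25, or either TSP1 array, at 1.16 and 1.23. For other pathway genes the methods' t-test gave 14 unadjusted and 0 adjusted, against 4, and fits without 1 array 1 to 3, with 1 left without any Gpc4 or TSP1 array. Between cultures, quantile normalization called 0 of the 17, against 1, the filter 2, the trended variance 2, a threshold of 0.10 2, and every fit without 1 array 0. With 1 array left out, the lone array of its condition was assumed to vary like the others. The paired fit with the replicate block added Grem1 and Bambi and changed no other call among the 17 probe sets. The causes were not tested. Of the 17 probe sets, 8 lay below the array medians on all arrays, where differences are compressed and background was not measured.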
